A study of Mus musculus with 24 samples.

Results

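Nnt and 9 genes of NADPH supply and thiol or peroxide handling were examined in primary mouse neural stem cells (NSCs). The 10 members are Nnt, Idh2, Me1, Gsr, Glrx2, Gpx4, Txnrd1, Txnrd2, Prdx3 and Sod2, taken by gene symbol, and each matched exactly 1 of the 14922 genes in the deposited expression table. The NSCs came from the cortex of E14.5 embryos, were labelled as female and as cultured for fewer than 10 passages, and 100 ng of RNA went into each poly(A) library. FVB wild type (FVB/NJ, Smchd1+/+) is compared with FVB MommeD43 (FVB/NJ, homozygous for the ENU-induced Smchd1 MommeD43 allele). B6GFP wild type (C57BL/6J) is compared with B6GFP MommeD43 (C57BL/6J, homozygous for MommeD43 made with CRISPR-Cas9), and both of these groups carry Smchd1 fused to GFP, although the labels give the B6GFP controls as Smchd1+/+. Strain and the GFP fusion therefore differ together and cannot be told apart. Smchd1 encodes a chromosomal protein of the SMC family that silences genes on the inactive X chromosome and at clustered autosomal loci, and MommeD43 is a missense allele of it.

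Each group was labelled with 6 libraries, and 2 columns of the table, 1 in each MommeD43 group, equal the mean of their group mates in every gene and were left out. The remaining 22 libraries came from 17 cell lines, with 5 lines in FVB wild type and 4 in each of the other groups, and 5 lines were sequenced in 2 batches. The labels number the lines but do not say that each came from a separate embryo, and some B6GFP lines share the first part of their number. The p-values rest on the weighted spread of the 22 libraries, with line as a block at a low correlation (0.0828). Repeats of a line therefore counted nearly as separate libraries, and the p-values do not measure the spread between embryos. Batch 1 held both strains, batch 2 FVB only and batch 3 B6GFP only. Batch enters the fit as a term, so a strain difference is set almost only by the 10 libraries of batch 1. Batches 2 and 3 add to the genotype differences within a strain and to the estimate of the spread. Values are read counts scaled to library size on a log2 scale (log2 CPM), which the authors had already corrected for batch. Their methods also name sex and strain as corrected for, and how strain entered the deposited values is not given in the sources used here, so the size of a strain difference in this table may depend on that step. Within a batch, the smallest steps above the level of 0 reads gave the relative depth of the libraries, which ran from 0.137 to 0.19 of the deepest library in batch 2, from 0.526 to 0.893 in batch 1 and from 0.435 to 1 in batch 3. Absolute depth is unknown.

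NADPH is the electron donor that keeps glutathione and thioredoxin reduced. In mitochondria it is made by nicotinamide nucleotide transhydrogenase (Nnt), which sits in the inner membrane and uses the proton gradient to pass electrons from NADH to NADP+, and by NADP-dependent isocitrate dehydrogenase (Idh2). Glutathione reductase (Gsr) and the thioredoxin reductases (Txnrd1 in the cytosol, Txnrd2 in mitochondria) spend it, and glutaredoxin 2 (Glrx2), peroxiredoxin 3 (Prdx3) and glutathione peroxidase 4 (Gpx4) use the reduced thiols downstream. C57BL/6J mice carry a known deletion of several exons of Nnt and lack functional NNT protein, whereas FVB/NJ mice do not carry it. Nnt lies at chr13:119335527-119409257 on the minus strand of GRCm38.p6. Its longest annotated coding transcript has 17 exons and 2505 coding bases. That annotation lies on the genome of C57BL/6J, the strain with the deletion, so it need not hold the deleted exons. Reads from exons that this genome lacks could not be counted in either strain. Counts per gene do not show which exons the reads came from, and the deletion's part in the strain difference was not tested.

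Me1, the cytosolic malic enzyme, and Txnrd1 are textbook targets of NRF2, the transcription factor that binds antioxidant response elements. Promoter windows from RefSeq (GRCm38.p6), 250 bases before to 50 bases after a gene start, were found for 8 of the 10 members, 17 windows in all. The core of the element, TGACNNNGC on either strand (read as GCNNNGTCA on the other), was present in 2 of these 17 windows and in 12.4% of all 32851 windows. The 2 stretches that hold it are shown 5′ to 3′ on the strand of the gene, from 150 bases before the start through the first 30 bases from the start, with the motif in capitals, because they are the only member windows with a match. The Me1 stretch is chr9:86695885-86696064 (minus strand) and the Txnrd1 stretch is chr10:82859056-82859235 (plus strand).
Me1: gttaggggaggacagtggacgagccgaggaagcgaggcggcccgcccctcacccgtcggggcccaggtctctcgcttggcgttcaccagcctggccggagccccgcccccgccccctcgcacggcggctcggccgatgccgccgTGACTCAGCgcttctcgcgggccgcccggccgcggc
Txnrd1: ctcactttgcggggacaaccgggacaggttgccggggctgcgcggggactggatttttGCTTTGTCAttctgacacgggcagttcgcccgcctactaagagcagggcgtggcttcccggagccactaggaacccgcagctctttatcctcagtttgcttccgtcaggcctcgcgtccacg
The Me1 motif begins 6 bases before the start, and the Txnrd1 motif begins 92 bases before it, on the opposite strand. A match is a description of the letters and not evidence of binding.

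The cells expressed the NSC markers Nes, Sox2, Vim and Fabp7 in every group, with group means from 7.64 to 11.35 log2 CPM. The summed level of the 10 NSC markers lay between 12.4 and 12.9 log2 CPM in all groups, and this sum mostly reflects the most abundant markers. Of the 10, 2 were higher and 7 lower in B6GFP wild type. Hes5 and Hes1 changed most, with log2 changes of -2.66 and -1.41 in the wild-type pair and -3.21 and -1.55 in the MommeD43 pair. All 5 measured astrocyte markers of 6 listed were lower in B6GFP in both genotypes, with summed levels of 8.06 to 8.62 in FVB libraries and 7.47 to 7.78 in B6GFP libraries. Gfap, S100b and Aqp4 had group means below 0 log2 CPM in both B6GFP groups. Of 8 oligodendrocyte lineage markers, 2 were higher and 3 lower in B6GFP wild type. In the same pair the neuron markers gave 0 higher and 2 lower of 10 and the endothelial markers 0 of 6 changed, and 1 of 7 microglial markers was in the table. In the MommeD43 pair 1 neuron marker was higher and 1 lower, and 1 endothelial marker was lower. Neuron markers were uneven within B6GFP MommeD43. Dcx had a median of -0.01 and a highest value of 5.20 log2 CPM there, and Tubb3 2.63 and 6.48. In B6GFP wild type their highest values were 0.65 and 3.47. The NSC, astrocyte and oligodendrocyte marker differences moved with strain. The part of any marker difference in the strain or genotype results given here was not tested. In bulk RNA, fewer cells of a type and less RNA per cell cannot be told apart. Smchd1 itself does not check the genotype labels, since MommeD43 is a missense allele, and its log2 change in MommeD43 was 0.05 (SE 0.06) in FVB and -0.01 (SE 0.08) in B6GFP.

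Per kilobase of the longest coding transcript, Idh2 was the highest in FVB wild type, at 7.37 log2 CPM per kb (SD 0.12, n = 5 lines), followed by Txnrd1 at 6.89 (SD 0.07) and Prdx3 at 6.16 (SD 0.08). Gpx4 (5.74), Gsr (5.49) and Glrx2 (5.25) came next. Me1 at 4.63 (SD 0.32), Nnt at 4.57 (SD 0.16) and Sod2 at 4.46 (SD 0.08) did not differ beyond their spread. Txnrd2 was the lowest, at 2.16 (SD 0.07). In B6GFP wild type Nnt stood at 3.09 log2 CPM per kb (SD 0.10, n = 4 lines), below Sod2 at 4.40 and Me1 at 5.10, and only Txnrd2, at 1.85, was lower. These levels depend on the transcript taken as the gene's length.

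Nnt was the member with the largest strain difference. In FVB wild type the 6 libraries had a lowest value of 6.07, a median of 6.37 and a highest value of 6.48 log2 CPM. The 5 FVB MommeD43 libraries had 6.28, 6.43, 6.34, 6.32 and 6.33 log2 CPM. In B6GFP wild type the lowest value was 4.69, the median 4.86 and the highest 4.92 log2 CPM. The 5 B6GFP MommeD43 libraries had 4.88, 5.07, 4.91, 5.03 and 4.72 log2 CPM. Every B6GFP library was below every FVB library, the highest B6GFP value being 5.07 and the lowest FVB value 6.07 log2 CPM. Within a strain the genotypes overlapped.

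The fitted Nnt level in B6GFP wild type was 34% of that in FVB wild type, a log2 change of -1.56 (SE 0.06, 95% interval -1.69 to -1.42, limma adjusted p = 6.58e-14). In the MommeD43 pair it was 36.5% of the FVB level, a log2 change of -1.45 (SE 0.07, 95% interval -1.61 to -1.30, limma adjusted p = 5.9e-12). All 4 B6GFP lines of each genotype were below the FVB mean. Among all 14922 genes Nnt had the 15th smallest p in the wild-type pair, while 242 of the 3455 genes that passed as lower in B6GFP fell by more. Nnt transcript was still measured in B6GFP, with a mean of 28.4 CPM in B6GFP wild type against 79.7 CPM in FVB wild type. Batch 1 alone, which held both strains, gave a log2 change of -1.57 in the wild-type pair and -1.38 in the MommeD43 pair (limma adjusted p = 7.15e-06 and 7.42e-05). The main fit, with batch as a term, also takes the strain change almost only from batch 1, so this is not a separate check.

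**Figure D1:**
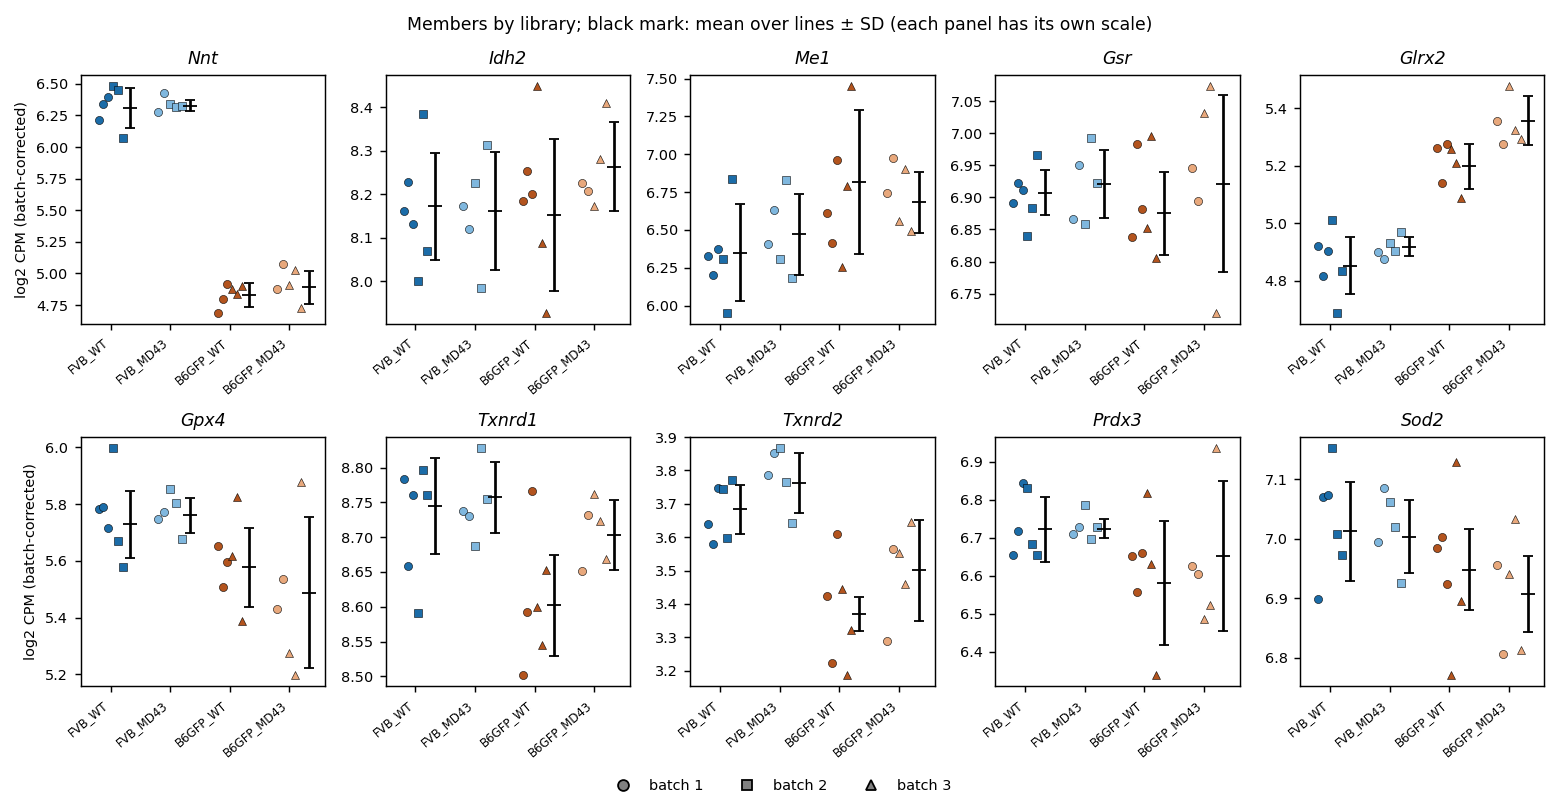
Deposited log2 CPM (batch-corrected) of the 10 members in the 22 libraries, by group, with 1 point per library and its shape giving the batch; black marks are the mean over lines and error bars the SD over lines, and each panel has its own vertical scale. Nnt lies between 6.07 and 6.48 in FVB and between 4.69 and 5.07 in B6GFP, and Glrx2 lies higher in B6GFP, while the other members overlap between strains.

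Of the other NADPH suppliers, Idh2 did not pass the test and Me1 passed in the wild-type pair alone. Idh2 ranged from 7.93 to 8.45 log2 CPM over all 22 libraries, and its log2 change was 0.03 (SE 0.06, 95% interval -0.09 to 0.15) in the wild-type pair and 0.07 (SE 0.07, 95% interval -0.07 to 0.21) in the MommeD43 pair. Me1 was the member that varied most between lines, with a pooled SD of 0.33 log2 units against 0.06 for Txnrd1. Me1 in FVB wild type had a lowest value of 5.95, a median of 6.32 and a highest value of 6.84 log2 CPM, and in B6GFP wild type 6.25, 6.70 and 7.45 log2 CPM. The libraries of the strains overlapped. The log2 change of Me1 was 0.33 (SE 0.12, limma adjusted p = 0.037), or 1.25-fold higher in B6GFP, and 3 of 4 B6GFP wild-type lines were above the FVB mean. In the MommeD43 pair it was 0.28 (SE 0.14, limma adjusted p = 0.131). The wild-type call was lost without array weights (limma adjusted p = 0.26) and with 1 value per line (adjusted p = 0.0779). It was also lost in batch 1 alone (adjusted p = 0.0704) and without FVB_WT replicate 2 or 4 or B6GFP_WT replicate 1 or 3 (adjusted p from 0.0646 to 0.245), with a log2 change of 0.20 without B6GFP_WT replicate 3. Without B6GFP_WT replicate 2 the log2 change rose to 0.52 (limma adjusted p = 0.00632). Me1 passed in the MommeD43 pair under 4 of 28 alternatives. They include the fit of all 24 columns, which counts 2 group means as libraries and in which 93.8% of all genes passed, and the fit with 1 value per line. The others left out FVB_MD43 replicate 2 or B6GFP_MD43 replicate 1, each with a log2 change of 0.42 (limma adjusted p = 0.0134 and 0.0132). Me1 shares 98.4% of bases over 1716 aligned bases with the processed pseudogene Gm7049, so its reads could be split.

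In the glutathione branch Glrx2 was higher in B6GFP, Gpx4 was lower and Gsr did not pass. Glrx2, a glutaredoxin that reduces mixed disulfides with glutathione, had a lowest value of 4.69, a median of 4.87 and a highest value of 5.01 log2 CPM in FVB wild type. In B6GFP wild type it had 5.09, 5.24 and 5.28 log2 CPM. The 5 FVB MommeD43 libraries had 4.90, 4.88, 4.93, 4.90 and 4.97 log2 CPM, and the 5 B6GFP MommeD43 libraries had 5.36, 5.28, 5.48, 5.33 and 5.29 log2 CPM. Every B6GFP library was above every FVB library. The log2 change of Glrx2 was 0.38 (SE 0.05, limma adjusted p = 5.15e-06) in the wild-type pair and 0.43 (SE 0.06, limma adjusted p = 1.25e-05) in the MommeD43 pair, or 1.30-fold and 1.34-fold. Annotated Glrx2 transcripts share repeat sequence, at 95% identity or more over at least 200 bases, with 37 other genes, 4 of them in the table, so its reads are less certainly assigned.

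Gpx4, a selenoprotein that reduces lipid peroxides in membranes, had a lowest value of 5.58, a median of 5.75 and a highest value of 6.00 log2 CPM in FVB wild type. In B6GFP wild type it had 5.39, 5.61 and 5.83 log2 CPM, so the groups overlapped. Its log2 change was -0.18 (SE 0.07, limma adjusted p = 0.0329) in the wild-type pair and -0.28 (SE 0.08, limma adjusted p = 0.00867) in the MommeD43 pair, or 88.1% and 82.3% of the FVB level. The wild-type call was lost without array weights, with 1 value per line, with each library centred on its median (log2 change -0.11) and without B6GFP_WT replicate 2 (-0.12), FVB_WT replicate 2 (-0.13) or B6GFP_MD43 replicate 1 (-0.17). The MommeD43 call was lost without array weights (limma adjusted p = 0.314). The pseudogene Gpx4-ps2 shares 99.7% of 762 aligned bases with Gpx4. Gsr, which regenerates reduced glutathione with NADPH, lay between 6.72 and 7.07 log2 CPM in all libraries, and its log2 change was -0.01 (SE 0.04, 95% interval -0.10 to 0.08) in the wild-type pair and -0.0049 (SE 0.05, 95% interval -0.11 to 0.10) in the MommeD43 pair.

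In the thioredoxin branch the mitochondrial reductase Txnrd2 was lower in B6GFP in both genotypes and the cytosolic reductase Txnrd1 passed in neither. Txnrd2 had a lowest value of 3.58, a median of 3.69 and a highest value of 3.77 log2 CPM in FVB wild type, and 3.19, 3.37 and 3.61 log2 CPM in B6GFP wild type. The overlap came from a single B6GFP library, at 3.61. The 5 FVB MommeD43 libraries had 3.79, 3.85, 3.87, 3.77 and 3.64 log2 CPM, and the 5 B6GFP MommeD43 libraries had 3.29, 3.56, 3.55, 3.46 and 3.65 log2 CPM. The log2 change of Txnrd2 was -0.28 (SE 0.08, limma adjusted p = 0.0126) in the wild-type pair and -0.40 (SE 0.10, limma adjusted p = 0.0039) in the MommeD43 pair, or 82.6% and 75.9% of the FVB level. In batch 1 alone it was -0.26 and -0.39 (limma adjusted p = 0.0964 and 0.0711). The calls were lost without array weights (adjusted p = 0.149 and 0.337), and the wild-type call was lost without B6GFP_WT replicate 2, where the log2 change was -0.15. For the MommeD43 pair the log2 change was -0.25 without B6GFP_MD43 replicate 1 (limma adjusted p = 0.0218), and with each line left out it ran from -0.51 to -0.25.

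Txnrd1 lay between 8.50 and 8.83 log2 CPM in all libraries, with a log2 change of -0.11 (SE 0.05, limma adjusted p = 0.0627) in the wild-type pair and -0.05 (SE 0.05, adjusted p = 0.55) in the MommeD43 pair. Prdx3, the peroxiredoxin that removes hydrogen peroxide in mitochondria with thioredoxin 2, had a log2 change of -0.13 (SE 0.05, limma adjusted p = 0.0514) in the wild-type pair and -0.11 (SE 0.06, adjusted p = 0.179) in the MommeD43 pair. Sod2, the manganese superoxide dismutase of the mitochondrial matrix, had -0.09 (SE 0.05, limma adjusted p = 0.142) and -0.13 (SE 0.06, adjusted p = 0.0873). Each of the 3 genes sat close to the threshold in 1 pair. Txnrd1 passed under 6 and Prdx3 under 13 of 28 alternatives in the wild-type pair, and Sod2 passed under 7 of 28 in the MommeD43 pair. In the other pair Txnrd1 and Prdx3 each passed under 1 of 28 and Sod2 under 0. The counts above 0 include the fit of all 24 columns, which counts 2 group means as libraries. Sod2 shares sequence at 98.3% identity over 3110 bases with a transcript annotated for Rps6ka2, so its reads could be split.

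Counted together, 5 of the 10 members passed in the wild-type pair, 2 higher (Glrx2 and Me1) and 3 lower in B6GFP (Nnt, Txnrd2 and Gpx4), where 41.1% of all genes passed, 17.9% higher and 23.2% lower. In the MommeD43 pair 4 of 10 passed, 1 higher (Glrx2) and 3 lower (Nnt, Txnrd2 and Gpx4), where 34.4% of all genes passed, 14.7% higher and 19.6% lower. These shares are near the background. At an unadjusted p under 0.05 (limma) there were 7 of 10 members in the wild-type pair, against 48.7% of all genes, and 5 of 10 in the MommeD43 pair, against 43.9%. The libraries of the strains did not overlap for 2 of 10 members in each pair, against 10.3% of all genes in the wild-type pair and 16.7% in the MommeD43 pair. The median size of the change, without its sign, was 0.16 log2 units over the members and 0.19 over all genes in the wild-type pair, and 0.21 for both in the MommeD43 pair. The 5 became 2 (Nnt and Glrx2) without array weights, where 8.44% of all genes passed, 3 in batch 1 alone, where 34.1% did, and 3 without B6GFP_WT replicate 2, where 30.5% did. The 4 became 2 without array weights, where 6.82% of all genes passed. The share of all genes also moved by over 1.5 times without FVB_WT replicate 2 in the wild-type pair (26.9%, with 4 members) and without B6GFP_MD43 replicate 3 in the MommeD43 pair (54.8%, with 5 members).

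**Figure D2:**
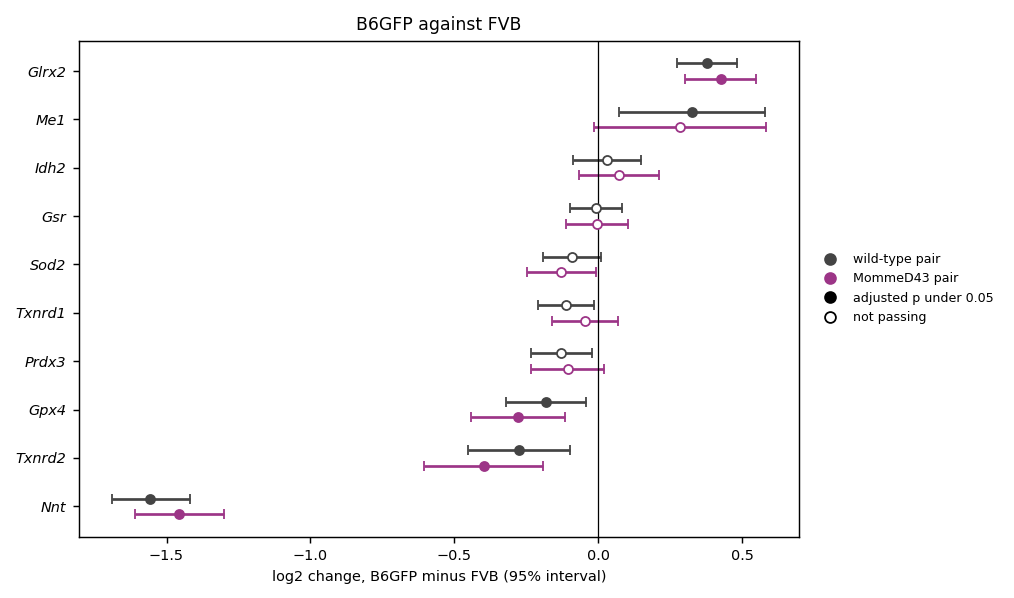
Fitted log2 change, B6GFP minus FVB, of each member in the wild-type pair (grey) and the MommeD43 pair (purple), with 95% intervals as bars; filled points have a limma adjusted p under 0.05. Nnt stands apart at -1.56 and -1.45, and the other members lie between -0.40 and 0.43.

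The wider redox pathways were described with 6 lists that held 121 measured genes, members included. In the wild-type pair 63 of the 121 passed, 27 higher and 36 lower in B6GFP, or 52.1% against 41.1% of all genes. In the MommeD43 pair 52 passed, 24 higher and 28 lower, or 43% against 34.4% of all genes. Without array weights these counts were 14 and 16, where 8.44% and 6.82% of all genes passed. The lists share genes, and no list was tested as a set.

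Among 23 genes of NADPH supply, 7 were higher and 6 lower in B6GFP wild type, with a median log2 change of 0.03 against -0.02 over all genes, and 7 were higher and 7 lower in the MommeD43 pair. Besides Nnt, the genes with the smallest p included 3 more of mitochondria. Me3, the mitochondrial NADP-dependent malic enzyme, had a log2 change of -2.65 (SE 0.23, limma adjusted p = 1.13e-08) in the wild-type pair and -2.46 (SE 0.27) in the MommeD43 pair. Its group means were 3.34 log2 CPM (SD 0.66) in FVB wild type and 1.22 (SD 0.96) in B6GFP wild type, closer together than the fitted change. The wild-type libraries overlapped, with a lowest FVB value of 2.35 and a highest B6GFP value of 2.63, while those of the MommeD43 pair did not. Nadk2, the mitochondrial NAD kinase, was lower, with log2 changes of -0.77 (SE 0.07) and -0.80 (SE 0.08) in the wild-type and MommeD43 pairs, as was Glud1, glutamate dehydrogenase, with -0.60 (SE 0.07) and -0.65 (SE 0.09). Tkt, transketolase of the pentose phosphate pathway, was higher, with a log2 change of 0.41 (SE 0.05) and 0.32 (SE 0.05). G6pdx and Pgd, the cytosolic NADPH-producing dehydrogenases of that pathway, were higher by 0.29 (SE 0.05) and 0.36 (SE 0.06) in the wild-type pair and passed in both pairs. The list did not divide by compartment. Mitochondrial Mthfd1l was higher, with log2 changes of 0.72 and 0.57 in the wild-type and MommeD43 pairs. Cytosolic Aldh1l1 was lower, with -1.52 and -1.44, and both genes passed in both pairs.

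Among 34 glutathione genes, 6 were higher and 14 lower in B6GFP wild type, with a median log2 change of -0.09, and 4 were higher and 11 lower in the MommeD43 pair, with a median of -0.10. Slc7a11, the cystine importer that feeds glutathione synthesis, had a log2 change of -1.09 (SE 0.11, limma adjusted p = 6.78e-08) in the wild-type pair and -1.16 (SE 0.12) in the MommeD43 pair, and its libraries did not overlap between strains in either pair. Gsta4, a glutathione transferase for lipid aldehydes, had -1.32 (SE 0.15) and -0.93 (SE 0.17). Chac2, which degrades glutathione, had -0.94 (SE 0.11) and -0.74 (SE 0.13), Gstm1 had -0.78 (SE 0.10) and -0.79 (SE 0.12), and Gsto1, an omega-class transferase, was higher by 0.55 (SE 0.07) and 0.57 (SE 0.08). Gstm1 and Gsta4 belong to families of similar genes, so their reads could be split.

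Among 24 thioredoxin and peroxiredoxin genes, 3 were higher and 7 lower in B6GFP wild type and 3 higher and 5 lower in the MommeD43 pair. Txnip, which binds and inhibits thioredoxin, had a log2 change of -1.59 (SE 0.31, limma adjusted p = 0.000386) and -1.87 (SE 0.37, limma adjusted p = 0.000539), with libraries that overlapped between strains. Prdx4, the peroxiredoxin of the endoplasmic reticulum, was higher by 0.27 (SE 0.07) and 0.25 (SE 0.08), and Sesn3 was lower, at -0.29 (SE 0.08) and -0.33 (SE 0.10). Txnl1 passed in the MommeD43 pair alone, with 0.05 (SE 0.05) and 0.20 (SE 0.06). Among 8 genes of superoxide and peroxide handling, 3 were higher and 3 lower in each pair. Ucp2, an inner membrane carrier, had -1.62 (SE 0.14, limma adjusted p = 8.44e-09) and -1.61 (SE 0.16), and Ccs, the copper chaperone for superoxide dismutase 1, had -0.79 (SE 0.08) and -0.73 (SE 0.09). Sod1 itself, the cytosolic copper-zinc enzyme, was higher, by 0.21 (SE 0.03) and 0.27 (SE 0.04).

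Among 22 measured genes of the NRF2 list, 8 were higher and 4 lower in B6GFP wild type and 6 higher and 2 lower in the MommeD43 pair, with medians of -0.01 and -0.03. Its higher genes included Maff, a small MAF partner of NRF2, with 0.80 (SE 0.14) and 0.84 (SE 0.16). The Maff libraries overlapped between strains in both pairs, and those of B6GFP wild type ran from 3.98 to 6.58 log2 CPM. Keap1, the inhibitor of NRF2, was higher in the wild-type pair alone, with 0.24. The target Slc7a11 was lower in both pairs and the target Nqo1 in the wild-type pair alone, with -0.71. The targets Me1 and Txnrd1 had the values given earlier. Among 25 genes of selenoproteins and their synthesis, 4 were higher and 6 lower in the wild-type pair, or 40%, and 3 higher and 4 lower in the MommeD43 pair. Besides Gpx4 and Txnrd2, the lower genes included Sepsecs, which makes selenocysteinyl-tRNA, with -0.41 (SE 0.08) and -0.48 (SE 0.10), and Gpx3, the secreted glutathione peroxidase, with -0.36 (SE 0.13) and -0.59 (SE 0.15). Selenoh was higher by 0.38 (SE 0.07) and 0.26 (SE 0.08), Selenon by 0.16 (SE 0.05) and 0.21 (SE 0.06), and Gpx1, the cytosolic glutathione peroxidase, by 0.23 (SE 0.06) in the wild-type pair, whereas its MommeD43 value of 0.16 (SE 0.07) did not pass.

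**Figure D3:**
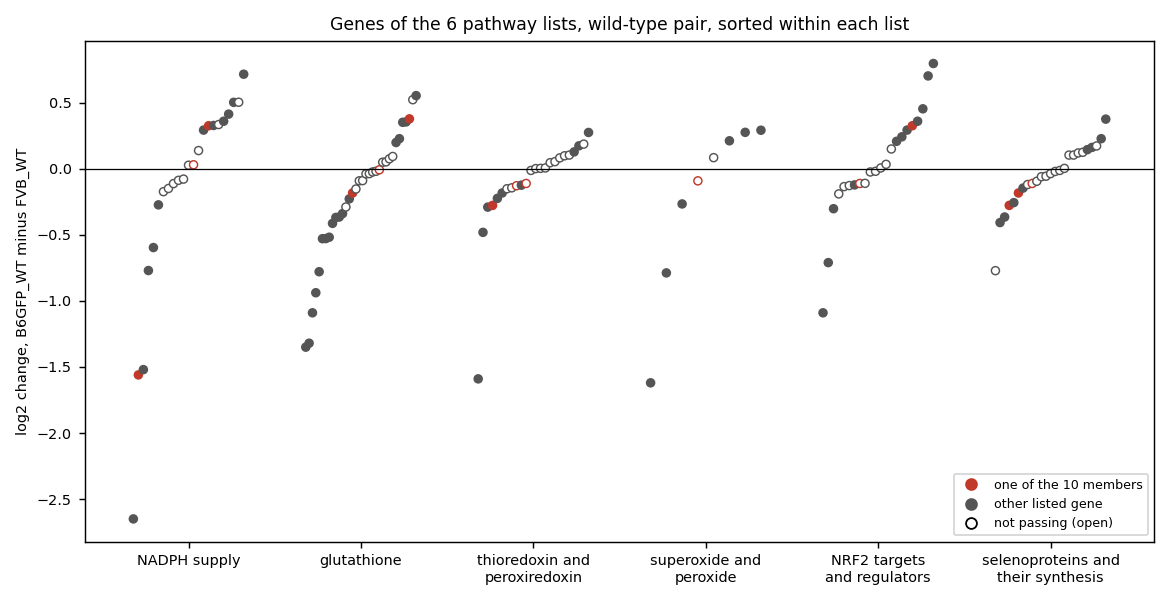
Fitted log2 change, B6GFP wild type minus FVB wild type, of every measured gene of the 6 pathway lists, sorted within each list; red points are members, filled points have a limma adjusted p under 0.05 and open points do not. Nnt, at -1.56, lies among the 4 lowest genes of all lists, below which stand Me3 at -2.65, Ucp2 at -1.62 and Txnip at -1.59.

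The difference at Nnt was compared with its neighbours on chromosome 13. The table held 13 other genes whose lowest annotated coordinate lies within 1 Mb of that of Nnt. Distances given here are between these lowest coordinates and are not the gaps between genes. Of these, 6 passed in the wild-type pair, 5 lower and 1 higher in B6GFP, where 41.1% of all genes passed, and 6 passed in the MommeD43 pair, 4 lower and 2 higher, where 34.4% of all genes passed. Their changes were small beside that of Nnt. Paip1, a translation regulator and the nearest by this measure, at 92.8 kb, had a log2 change of -0.13 (SE 0.04, limma adjusted p = 0.0184) in the wild-type pair and -0.0023 (SE 0.05) in the MommeD43 pair. The uncharacterised gene 4833420G17Rik, at 126 kb, had -0.31 (SE 0.06) and -0.22 (SE 0.07). Hmgcs1, the cytosolic synthase of the sterol pathway, had -0.30 (SE 0.08) and -0.36 (SE 0.09), Nim1k, a protein kinase, -0.24 (SE 0.07) and -0.40 (SE 0.08), and Mrps30, a mitochondrial ribosomal protein at -955 kb, -0.18 (SE 0.06) and -0.21 (SE 0.07). Zfp131 was higher, with 0.29 (SE 0.08) and 0.27 (SE 0.10), and Gm21378 passed as higher in the MommeD43 pair, with 0.27 (SE 0.10). The remaining 3110070M22Rik, Tmem267, Ccl28, Gm20784, Gm21370 and Gm21188 did not pass in either pair.

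**Figure D4:**
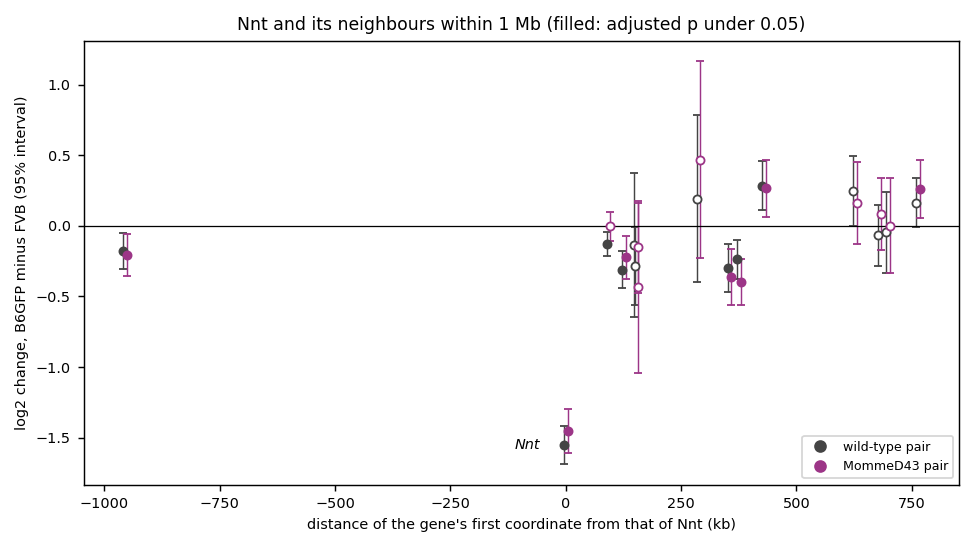
Fitted log2 change, B6GFP minus FVB, of Nnt and the 13 table genes within 1 Mb of it against distance in kb, in the wild-type pair (grey) and the MommeD43 pair (purple), with 95% intervals as bars; filled points have a limma adjusted p under 0.05. Nnt is at -1.56 and -1.45, and no neighbour's fitted value is below -0.44.

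MommeD43 was then compared with wild type within each strain, the question being whether the Smchd1 allele alters expression. No member passed in FVB, where 0.0737% of all genes did (11 of 14922, limma; 0.0201% higher and 0.0536% lower), nor in B6GFP, where 0% did. The counts over all genes rested on single lines, with 981 in FVB without FVB_MD43 replicate 2, and with 107 and 139 in B6GFP without B6GFP_MD43 replicate 1 and replicate 3, while 0 members passed in each of these. No member's libraries were apart between genotypes, against 0.456% of all genes in FVB and 0.208% in B6GFP. At an unadjusted p under 0.05 the counts of members were 2 in FVB and 0 in B6GFP, against 6.86% and 2.14% of all genes. Nnt had a log2 change of 0.01 (SE 0.06, 95% interval -0.11 to 0.13) in FVB and 0.11 (SE 0.07, 95% interval -0.04 to 0.26) in B6GFP. Neither interval reaches the size of the strain difference. The 2 members in FVB were Me1, with 0.24 (SE 0.11, limma adjusted p = 0.656), and Txnrd2, with 0.17 (SE 0.07, limma adjusted p = 0.67). In batch 2 alone the FVB value of Me1 was near 0 (-0.0028). In B6GFP the fitted Me1 value was 0.20 (SE 0.14), while its mean over lines was 6.68 log2 CPM in MommeD43 and 6.82 in wild type, so the weighted fit and the plain means pointed in opposite directions. Glrx2 had 0.06 (SE 0.04) in FVB and 0.10 (SE 0.06) in B6GFP. The other members, Idh2, Gsr, Gpx4, Txnrd1, Prdx3 and Sod2, had values between -0.09 and 0.09 in both strains.

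Averaged over the strains, 0 of 10 members passed, against 0.0335% of all genes (0.0134% higher and 0.0201% lower), and 2 of 10 had an unadjusted p under 0.05 (limma), against 4.62% of all genes. These were Me1, with 0.22 (SE 0.09, limma adjusted p = 0.992), and Glrx2, with 0.08 (SE 0.04, adjusted p = 0.999). The test of whether the MommeD43 effect differs between strains passed for 0 of 10 members and 0% of all genes, and 0 of 10 members had an unadjusted p under 0.05 (limma), against 3.07% of all genes. For Nnt that difference was 0.10 (SE 0.09, 95% interval -0.09 to 0.29), with the B6GFP effect the larger. Among the 121 pathway genes none passed in these comparisons, but 8 passed in FVB without FVB_MD43 replicate 2, and 1 in B6GFP and 1 on average without B6GFP_MD43 replicate 1. With all lines, 6 in FVB, 1 in B6GFP and 6 on average had an unadjusted p under 0.05. Those with the smallest p in FVB were Keap1, the inhibitor of NRF2, with 0.16 (SE 0.06, limma adjusted p = 0.416), Mthfd2l, a mitochondrial folate dehydrogenase, with -0.20 (SE 0.08), and Txnl1, with -0.12 (SE 0.05). In B6GFP they were Gsta4, with 0.40 (SE 0.17), Nadk, with 0.08 (SE 0.04), and Sod3, with 0.91 (SE 0.49), all with an adjusted p of 1. On average over the strains they were Nadk, with 0.06 (SE 0.03), Aldh1l1, a cytosolic folate dehydrogenase that makes NADPH, with 0.38 (SE 0.18), and Prdx6, with 0.11 (SE 0.05), all with an adjusted p of 0.999. For the difference between strains they were Keap1, with -0.25 (SE 0.09), Txnl1, with 0.15 (SE 0.07), and Mthfd2l, with 0.24 (SE 0.13), all with an adjusted p of 1.

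**Figure D5:**
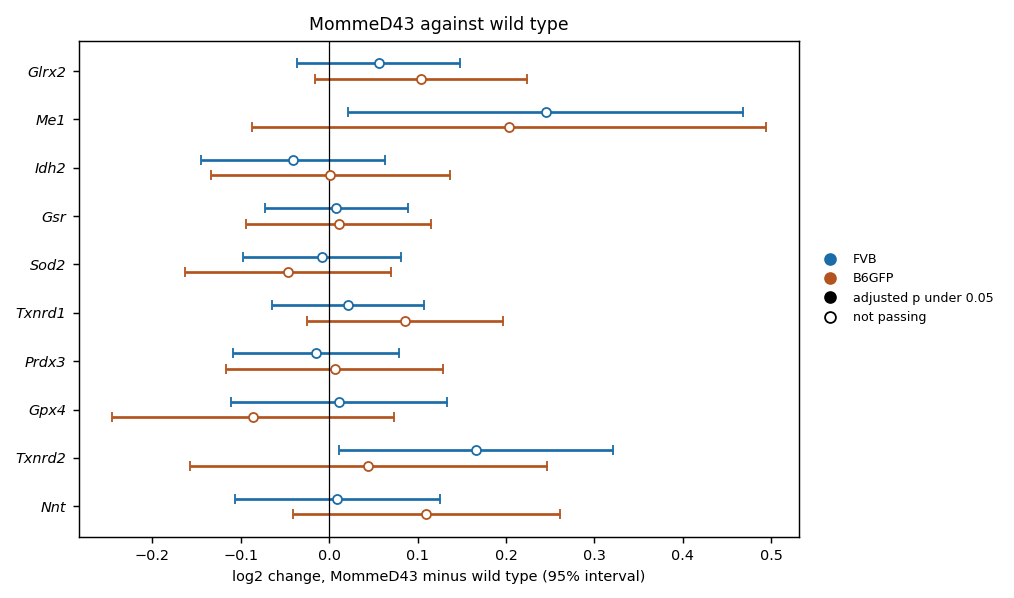
Fitted log2 change, MommeD43 minus wild type, of each member in FVB (blue) and B6GFP (brown), with 95% intervals as bars; open points do not reach a limma adjusted p under 0.05, and no point is filled. The widest interval, that of Me1 in B6GFP, reaches 0.49.

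Over the 17 line means, the 5 genes most like Nnt among 12856 with a mean above 0 log2 CPM were Bod1-ps (Pearson r = 0.988), Pttg1 (0.987), Hddc3 (0.985), Gm1943 (0.984) and Mob3b (0.982). All 5 had a fitted change below 0 in B6GFP wild type, from -1.29 to -4.36 on the log2 scale, so this likeness follows the strain step that the lines share. With group means taken off, the closest genes included Tufm (r = 0.845), Zfp442 (0.841), Arhgap17 (0.834) and Spata6 (0.821). Of the members, Glrx2 had r = -0.899 with Nnt over line means and Txnrd2 had r = 0.792. With group means taken off these were -0.21 and -0.34, and the largest among members was 0.46, for Sod2. These correlations are descriptions over 17 lines that share strain, batch and depth.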

How the data were processed

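Poly(A) RNA libraries (TruSeq) were sequenced by the authors, trimmed with Trim Galore 0.4.4, aligned with HISAT2 2.0.5 to GRCm38.p6 and normalized with limma 3.40.6, and, over a larger set that held further libraries, adjusted for strain, sex and batch. The read counter and its strand setting are not given in the sources used here. The reference genome is that of C57BL/6J, and its effect on the counts of FVB/NJ reads was not tested. The deposited values are log2 CPM, not counts, and were used as deposited. Of 24 columns, 2 equal to the mean of their group mates were left out. Within each batch, 3043 of 3043 low values checked lay whole numbers of steps above the level of 0 reads (tolerance 0.01), which gave relative depth. 247 genes have no symbol.

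All 14922 genes were fitted with limma 3.58.1 in R, with group and batch as terms, array quality weights (0.1 to 4.9), line as a block (correlation 0.0828) and a trended prior. There were 16 residual degrees of freedom. The Benjamini-Hochberg adjustment covered every gene, and a gene passed under 0.05. Intervals cover 95%. The code was tested on simulated data. Levels are means over lines ± SD. The members and lists were chosen with earlier results of these data known. Named genes were the 10 members, up to 3 passing genes with the smallest p per list and comparison (or the 3 smallest over all lists where none passed), table genes within 1 Mb of Nnt, the 5 most like it by each measure, and Smchd1, and some results under this rule are not reported here. Same-numbered libraries do not mark a shared animal or litter in the labels. Alternatives changed columns, weights, block, batch, scaling, pseudocount (1), a filter (above 1 CPM in at least 4 libraries) and lines.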

Additional observations from a re-analysis of the deposited data

Results flagged for a closer look

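In 40 sets of line means (10 members in 4 groups) 3 had a line far from its mates, against about 2 that chance gives at 1 in 20. Glrx2 in FVB_MD43 replicate 5 was at 4.97 log2 CPM, with the other 3 lines all at 4.90. Txnrd1 in FVB_WT replicate 2 was at 8.62, with the other 4 lines between 8.76 and 8.80. Prdx3 in B6GFP_WT replicate 4 was at 6.34, with the other 3 lines between 6.65 and 6.69, and this library also had the lowest array weight (0.1). Without FVB_WT replicate 2 Txnrd1 passed in the wild-type strain comparison (log2 change -0.17, limma adjusted p = 0.0195), and without B6GFP_WT replicate 4 Prdx3 did (-0.13, limma adjusted p = 0.0447). The difference in MommeD43 effect between strains passed for 0 of 10 members.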

How the results depend on the processing

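Nnt and Glrx2 passed in both strain comparisons under all 28 alternatives, with log2 changes of -1.59 to -1.48 and 0.35 to 0.45 in the wild-type pair and -1.50 to -1.32 and 0.38 to 0.49 in the MommeD43 pair. The members passing in the wild-type pair went from 5 (41.1% of all genes passing) to 2 without array weights (8.44%) and to 3 in batch 1 alone (34.1%), and ranged from 3 to 6 with each line left out, with 3 without B6GFP_WT replicate 2 (30.5%). In the MommeD43 pair they went from 4 (34.4% of all genes passing) to 2 without array weights (6.82%) and to 10 with all 24 columns (93.8%), and ranged from 4 to 6 with each line left out. With all 24 columns, 1 member (Glrx2) passed for MommeD43 in B6GFP and 1 (Glrx2) on average over the strains, against 0, and Gsr in the MommeD43 strain pair turned to 0.0154 (limma adjusted p = 0.003). These 24 columns count 2 group means as libraries. With each line left out, 0 members passed in the MommeD43 comparisons, but over all genes the count in FVB went from 11 to between 3 and 981 and in B6GFP from 0 to as many as 139, on average from 5 to between 2 and 91 and for the difference between strains from 0 to as many as 12. The pathway genes passing went from 0 to 8 in FVB without FVB_MD43 replicate 2. The causes of these changes were not tested.

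Replicate numbers gave no pairing: correlations of deviations between same-numbered lines ran from -0.484 to 0.138. With the replicate block 0 members passed in each of the 4 MommeD43 comparisons, as without it. The block could not be fitted for the strain comparisons. Absolute depth is unknown, and the shallowest batch held FVB libraries only.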
